A study of Mus musculus with 30 samples.

Results

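The proteasome genes of mouse extensor digitorum longus (EDL), a fast muscle of the hind limb, were taken as all genes of the RNA-Seq table whose symbol begins with PSMA to PSMG followed by a digit. Membership was set by name alone, but the family was chosen with earlier results of these data known. It numbered 49 of the 21073 genes. The rule took in 8 alpha and 7 constitutive beta subunits of the 20S core particle and the thymus subunit PSMB11. It took in the 3 immunoproteasome subunits PSMB8, PSMB9 and PSMB10. Grouped with the 19S regulatory particle were 6 ATPases (PSMC) and 14 other genes (PSMD). Of these, PSMD5, PSMD9 and PSMD10 are chaperones that help assemble the 19S and not subunits of the finished particle. Counts and medians of 19S genes below include them. Also taken in were the 4 activators PSME1 to PSME4, the regulator PSMF1 (PI31) and 4 assembly chaperones (PSMG). The rule also took in PSMC3IP, a meiotic recombination factor that shares only the name and is not a proteasome subunit.

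The muscles came from 30 female WT SJL/J mice in 6 groups of 5. EAE-induced mice had been immunized with the [Ser140]-PLP139-151 myelin peptide in complete Freund's adjuvant (CFA), without pertussis toxin per the study's methods, which gives a relapsing-remitting model of multiple sclerosis. OVA mice had received ovalbumin in the same adjuvant, and Ctrl mice were unimmunized. EDL was dissected on day 14, the peak of disease, or on day 40, a remission, and each mouse was sampled once, so the days compare different mice. The labels give neither the age of the mice nor a batch, and no value for muscle mass was used here. Expression is given as RPKM (reads per kilobase of transcript, scaled to the reads of the library), so levels of different genes are on a scale per length. Depth, estimated from the steps of low values, lay between about 18000000 and 31500000 reads per mouse, with a median of 21600000. Markers of fast EDL fibres were abundant in all groups, with a mean of 5706 RPKM for the fast myosin MYH4 in Ctrl mice on day 14. The summed level of 10 fibre markers lay between 52490 and 64980 RPKM in EAE-induced mice on day 14 and between 72330 and 95400 in Ctrl mice, and of the 10 the calcium buffer PVALB was called (log2 fold change -1.47 ± 0.27). These were whole muscles, so fewer cells of a type and less RNA per cell cannot be told apart.

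The 26S proteasome degrades proteins that carry ubiquitin chains. The 19S regulatory particle binds and unfolds them with its ATPase ring, and the barrel-shaped 20S core cuts them at the active sites of PSMB5, PSMB6 and PSMB7. Interferon gamma induces 3 alternative subunits that replace these in newly built cores (PSMB8 for PSMB5, PSMB9 for PSMB6, PSMB10 for PSMB7), and it also induces the PA28 activator made of PSME1 and PSME2. Immunoproteasomes yield peptides suited to MHC class I and are constitutively high in leukocytes. In wasting muscle, ubiquitin ligases and proteasome subunits are known to rise together.

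In Ctrl mice on day 14, the most abundant proteasome gene was PSMB7, which carries the trypsin-like site, at 277 ± 41.0 RPKM (SD, n = 5 here and below). PSMB4 followed at 209 ± 49.8 RPKM, and the ranges of these neighbours overlapped (228 to 339 and 157 to 291 RPKM). The other tested 20S subunits spanned 12.5 RPKM for PSMA5 to 161 RPKM for PSMB1. The 19S genes spanned 9.49 RPKM for the chaperone PSMD10 to 171 RPKM for the ATPase PSMC3. Apart from the chaperones PSMD5, PSMD9 and PSMD10, the lowest 19S gene was PSMD14 at 38.1 RPKM. The immunoproteasome subunits averaged 26.5 to 30.6 RPKM. PSME1 was far above its partner PSME2, at 155 ± 43.9 against 7.36 ± 3.34 RPKM. PSME2 has a near-identical copy in the mouse genome, and reads shared with a copy may not have been assigned to it, so its level is uncertain. The testis subunit PSMA8 (0.0939 RPKM) and the thymus subunit PSMB11 (0.00202 RPKM) were at or near 0, and PSMC3IP averaged 1.82 RPKM. These 3 genes stayed below the filter for testing (a group mean above 3 RPKM), and the other 46 had a mean above 3 RPKM in each of the 6 groups.

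On day 14, proteasome genes of EAE-induced mice moved in opposite directions by class. Relative to Ctrl, 19 of 46 tested genes rose, among them 7 of 14 tested 20S subunits and 11 of 20 19S genes. In the same comparison 5 fell, namely PSMB8, PSMB9, PSMB10, PSME1 and PSME2. Relative to OVA, 26 rose, including 10 of 14 tested 20S subunits and 15 of 20 19S genes. There 4 fell (PSMB8, PSMB9, PSMB10 and PSME1). A gene was called at a Benjamini-Hochberg adjusted p under 0.05 over all genes tested in limma and a fold change above 1.5, and fold changes are on the log2(RPKM + 0.1) scale. Among all genes tested, 14.6% were called higher and 11.8% lower relative to Ctrl, and 11.0% and 9.28% relative to OVA. Both comparisons share the EAE mice, so they are not independent. The higher calls relative to OVA numbered 16 without EAE day 14 replicate 1. Those relative to Ctrl numbered 29 after a correction for transcript length, where 1231 of all 8771 genes tested were called higher. They also numbered 29 without a fold change threshold. The all-gene share without a threshold is not given here, so that count cannot be set against 14.6%. Calls relative to Ctrl that did not hold in all 10 fits leaving out a mouse were those of PSMB1, PSMB7, PSMC3, PSMD12, PSME2 and PSME4. Relative to OVA they were those of PSMA2, PSMA5, PSMB1, PSMB4, PSMB5, PSMB7, PSMC1, PSMC2, PSMD12 and PSMD13.

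**Figure D1:**
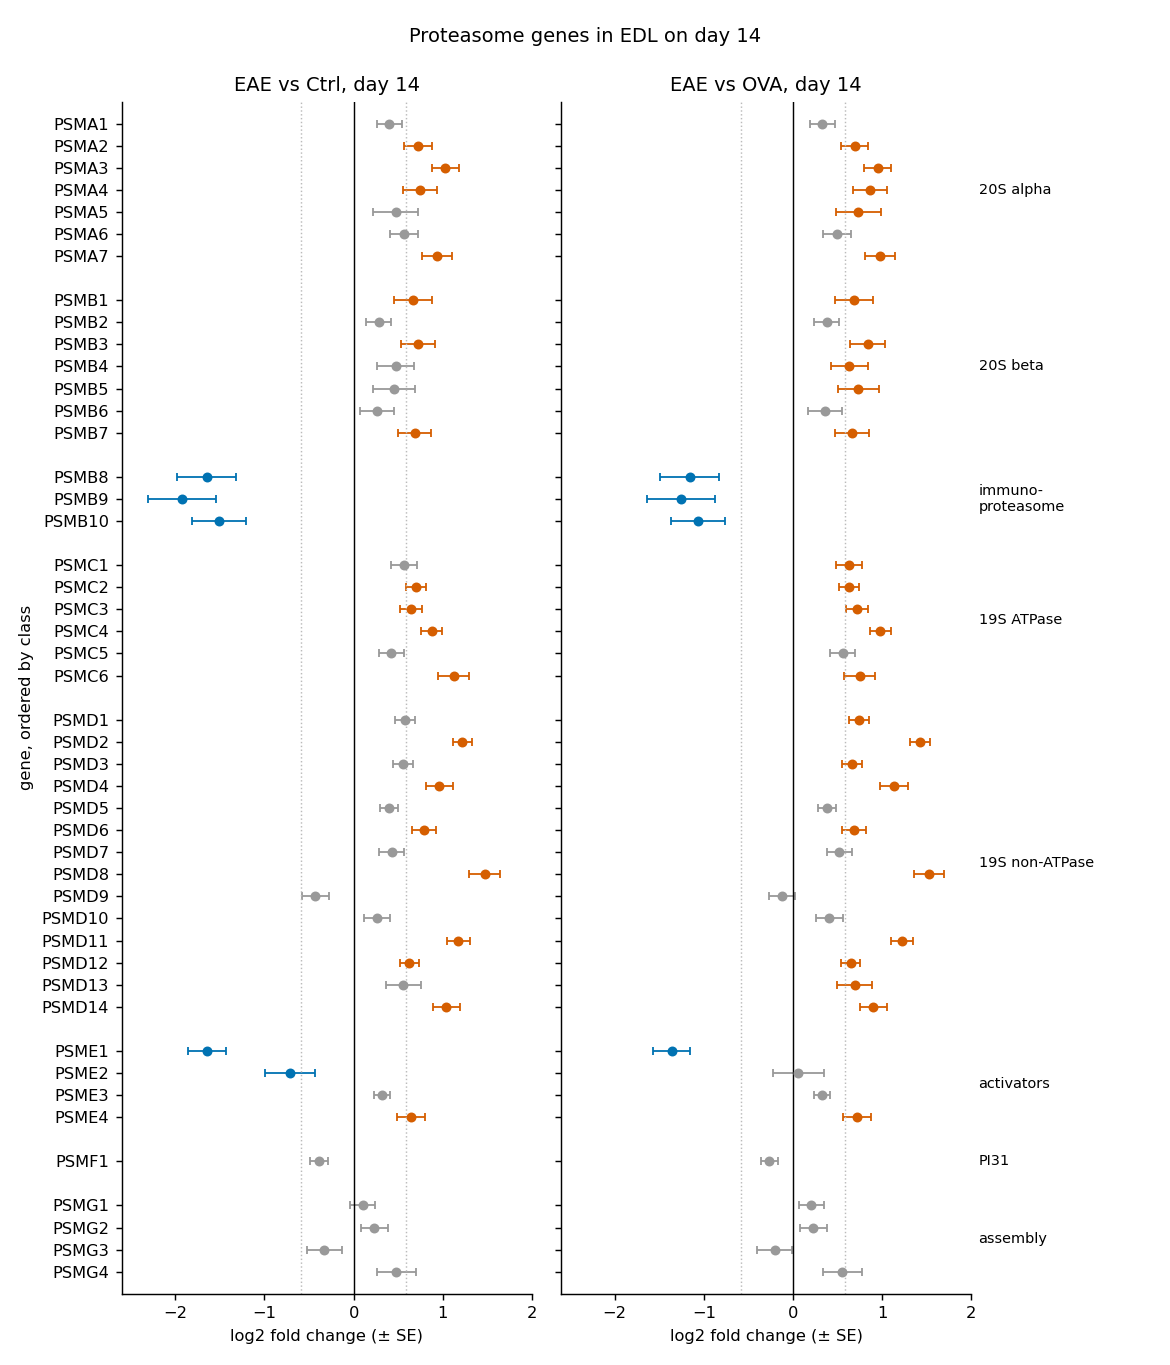
Log2 fold changes on log2(RPKM + 0.1) with their standard errors for the 46 tested proteasome genes on day 14, EAE against Ctrl on the left and EAE against OVA on the right, 5 mice a group. Orange genes were called higher, blue lower and grey neither, and dotted lines mark a fold change of 1.5. Constitutive 20S and 19S genes lie mostly to the right of 0, while PSMB8, PSMB9, PSMB10 and PSME1 lie to the left in both panels.

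The 3 immunoproteasome subunits fell on day 14 in EAE-induced mice relative to both control groups. PSMB8 (LMP7, chymotrypsin-like, chr17:34197790-34201454 in mm10, + strand) was 9.31, 5.40, 11.6, 7.64 and 6.84 RPKM in the 5 EAE mice on day 14. It was 27.2, 12.4, 16.0, 67.2 and 26.4 RPKM in the Ctrl mice and 17.9, 19.0, 19.0, 14.5 and 18.7 RPKM in the OVA mice. All EAE mice were below all mice of either control group, and 1 Ctrl mouse, replicate 4, stood far above the other 4. The log2 fold change was -1.65 ± 0.33 (SE) relative to Ctrl (3.13-fold lower, adjusted p = 0.000969 in limma) and -1.16 ± 0.33 relative to OVA (2.23-fold lower, adjusted p = 0.0121).

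PSMB9 (LMP2, chr17:34181987-34187764, − strand) replaces the caspase-like subunit PSMB6. It was 6.55, 3.54, 8.54, 5.71 and 4.57 RPKM in EAE, 26.3, 9.39, 13.2, 62.4 and 21.2 RPKM in Ctrl and 14.4, 14.2, 16.4, 8.81 and 14.6 RPKM in OVA mice on day 14. Again no EAE mouse reached a control mouse, and Ctrl replicate 4 was the highest. The log2 fold change was -1.92 ± 0.38 relative to Ctrl (adjusted p = 0.000894 in limma) and -1.26 ± 0.38 relative to OVA (adjusted p = 0.0165). PSMB9 lies head to head with the peptide transporter gene TAP1 on the opposite strand and their annotations overlap. The strand setting of the read counting is not given in the sources used here, so reads in the overlap may belong to either gene.

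PSMB10 (MECL-1, chr8:105935739-105938444, − strand) replaces the trypsin-like subunit PSMB7 and lies outside the MHC region. It was 13.3, 5.52, 12.7, 9.12 and 9.31 RPKM in EAE, 33.0, 19.0, 18.1, 61.4 and 21.6 RPKM in Ctrl and 23.5, 16.8, 17.8, 17.4 and 27.0 RPKM in OVA mice on day 14. The groups did not overlap, as for the other 2 inducible subunits. The log2 fold change was -1.51 ± 0.30 relative to Ctrl (2.84-fold lower, adjusted p = 0.000982 in limma) and -1.07 ± 0.30 relative to OVA (2.10-fold lower, adjusted p = 0.0117). Among all genes tested, 11.0% had every EAE mouse below every Ctrl mouse and 8.20% every EAE mouse below every OVA mouse.

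Part of the difference from Ctrl rested on 1 Ctrl mouse. Without Ctrl day 14 replicate 4 the log2 fold changes relative to Ctrl were -1.29 for PSMB8, -1.53 for PSMB9 and -1.21 for PSMB10, and all 3 stayed called. In that mouse TAP1 was 31.9 RPKM against 3.42 to 11.5 RPKM in the other Ctrl mice, and the interferon-induced factor IRF1 was 28.0 RPKM against 6.57 to 12.8 RPKM.

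**Figure D2:**
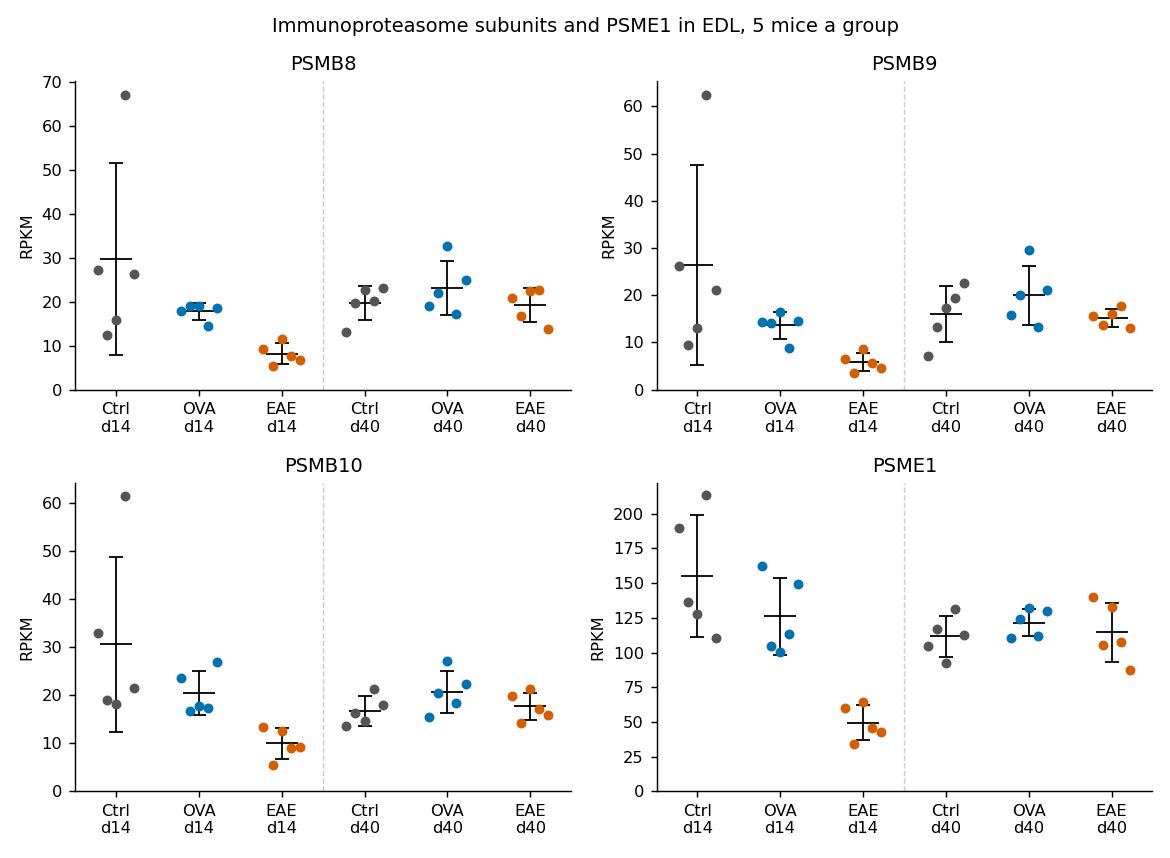
RPKM of PSMB8, PSMB9, PSMB10 and PSME1 in each mouse (points) of the 6 groups, with the mean and SD as bars and a dashed line between day 14 (d14) and day 40 (d40). The 5 EAE mice on day 14 lie below all 10 control mice of that day for each gene, and 1 Ctrl mouse on day 14 lies far above the rest for the 3 inducible subunits.

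The promoters of these 3 genes are shown because the genes moved together and because interferon acts on PSMB8 and PSMB9 through elements near their starts. The 250 bases before the RefSeq start (GRCm38.p6, the reference strain and not SJL/J) are given 5′ to 3′ on the strand of the gene. Motifs were searched on both strands, and capitals mark matches to TTCNNNGAA, the gamma-activated site (GAS), and to CCAAT, which reads ATTGG on the other strand. In PSMB8 (chr17:34197945-34198194) a GAS-like match lies 97 to 89 bases before the start, in a window that overlaps an annotated PSMB8 exon. The start used is not the outermost one, and the whole window lies inside the gene as positioned above.

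PSMB8: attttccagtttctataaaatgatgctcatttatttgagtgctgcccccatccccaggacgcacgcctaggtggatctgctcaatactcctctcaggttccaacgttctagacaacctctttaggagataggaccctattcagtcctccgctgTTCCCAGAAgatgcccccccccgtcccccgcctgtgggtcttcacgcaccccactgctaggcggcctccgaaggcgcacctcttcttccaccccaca

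PSMB9: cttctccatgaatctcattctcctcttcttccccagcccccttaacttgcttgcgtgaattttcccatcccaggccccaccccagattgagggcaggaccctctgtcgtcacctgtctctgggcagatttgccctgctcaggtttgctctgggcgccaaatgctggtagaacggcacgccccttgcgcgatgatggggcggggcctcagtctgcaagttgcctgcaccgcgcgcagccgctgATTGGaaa

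PSMB10: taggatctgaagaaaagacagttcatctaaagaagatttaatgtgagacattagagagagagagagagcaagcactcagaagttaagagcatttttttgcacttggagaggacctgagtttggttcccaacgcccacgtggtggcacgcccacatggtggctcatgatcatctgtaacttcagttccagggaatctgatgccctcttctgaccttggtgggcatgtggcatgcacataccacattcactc

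The PSMB9 window (chr17:34187331-34187580) also lies wholly inside its gene as positioned above. It overlaps exons of both PSMB9 and TAP1 and holds an inverted CCAAT match 8 to 4 bases before the start. The bases before the outermost annotated starts of PSMB8 and PSMB9 were not searched. The PSMB10 window (chr8:105938393-105938642) overlaps a PSMB10 exon and held no match. A GAS-like match was found in 7.02% of 32851 promoters of this length, and CCAAT in 33.8%. None of the 3 held a match to the interferon-stimulated response element, searched as GAAA, any 2 bases and GAAA (2.98% of all promoters) or the antioxidant response element core TGACNNNGC (10.2%). These are matches of letters and not tested sites.

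The activators split. PSME1 (PA28 alpha, chr14:55578360-55581528, + strand) fell in EAE-induced mice on day 14, to 60.0, 34.1, 64.6, 45.3 and 43.0 RPKM from 189, 136, 127, 213 and 110.2 RPKM in Ctrl mice. The OVA mice had 162, 105, 100.5, 114 and 149 RPKM. The ranges did not overlap in either comparison. Its log2 fold change was -1.64 ± 0.21 relative to Ctrl (3.13-fold lower, adjusted p = 2.4e-05 in limma) and -1.36 ± 0.21 relative to OVA (2.57-fold lower, adjusted p = 0.000139).

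PSME2 (PA28 beta, chr14:55587441-55591101, − strand) was 4.96, 3.07, 4.41, 4.47 and 4.05 RPKM in EAE and 8.60, 5.26, 5.13, 12.7 and 5.11 RPKM in Ctrl mice, just without overlap. It passed the test relative to Ctrl (log2 fold change -0.71 ± 0.28, adjusted p = 0.0488 in limma) but not in 6 of 10 fits that left out 1 mouse. These left out Ctrl replicate 1 (-0.63), Ctrl replicate 4 (-0.49) or 1 of EAE replicates 2 to 5 (-0.74 to -0.61). Relative to OVA mice (2.77 to 6.84 RPKM) the difference was 0.06 ± 0.28, with an adjusted p of 0.884 in limma. PSME4 (PA200), the activator of nuclear proteasomes, rose instead, to 58.1 ± 8.91 RPKM from 37.1 ± 5.78 in Ctrl and 35.5 ± 7.29 in OVA mice (log2 fold change 0.65 ± 0.16 and 0.72 ± 0.16). PSME3 (PA28 gamma), which is not an interferon target, was 31.5 to 39.9 RPKM in EAE and 27.1 to 29.9 RPKM in Ctrl mice, a difference of 0.32 ± 0.09 that stayed under the fold threshold.

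The largest single changes upward among the proteasome genes were those of the 19S subunits PSMD8, PSMD2 and PSMD11. The median of the 19S log2 fold change on day 14 was 0.63 relative to Ctrl and 0.69 relative to OVA, below that of the 7 tested 20S alpha subunits (0.72 and 0.73) and beside a median of 0.11 over all genes tested in each comparison. That all-gene median was 0.02 and 0.01 under median-of-ratios scaling, which called 15 proteasome genes higher relative to Ctrl and 20 relative to OVA. Of all genes it called 951 of 8730 and 709 of 8644 higher. Of the 20 19S genes, 14 had every EAE mouse above every Ctrl mouse and 16 above every OVA mouse, where 21.2% and 18.0% of all genes did.

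PSMD8 (RPN12, chr7:29174188-29180673, − strand), a lid subunit, was 413, 313, 197.5, 246 and 321 RPKM in EAE mice on day 14. Ctrl mice had 118, 95.3, 114, 105 and 90.7 RPKM and OVA mice 117, 83.9, 86.9, 98.2 and 122 RPKM. Every EAE mouse was above every control mouse. The log2 fold change was 1.47 ± 0.17 relative to Ctrl (2.77-fold, adjusted p = 1.17e-05 in limma) and 1.52 ± 0.17 relative to OVA (2.88-fold, adjusted p = 1.09e-05).

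PSMD2 (RPN1, chr16:20651652-20663414, + strand), the base subunit that docks ubiquitin receptors, was 225, 303, 227, 221 and 303 RPKM in EAE mice. It was 117, 101, 103, 115 and 107 RPKM in Ctrl and 90.9, 86.8, 95.1, 99.98 and 99.4 RPKM in OVA mice, again with no overlap. The log2 fold change was 1.22 ± 0.11 relative to Ctrl (adjusted p = 1.37e-06 in limma) and 1.42 ± 0.11 relative to OVA (adjusted p = 4.43e-07). The 250 bases before the RefSeq starts of these 2 genes, the 19S members with the largest changes relative to Ctrl, held none of the 4 motifs searched.

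PSMD8: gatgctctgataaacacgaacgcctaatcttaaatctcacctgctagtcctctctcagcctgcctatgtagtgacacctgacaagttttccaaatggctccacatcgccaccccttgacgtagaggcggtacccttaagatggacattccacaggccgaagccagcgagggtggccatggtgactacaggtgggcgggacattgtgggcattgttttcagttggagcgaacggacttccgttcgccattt

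PSMD2: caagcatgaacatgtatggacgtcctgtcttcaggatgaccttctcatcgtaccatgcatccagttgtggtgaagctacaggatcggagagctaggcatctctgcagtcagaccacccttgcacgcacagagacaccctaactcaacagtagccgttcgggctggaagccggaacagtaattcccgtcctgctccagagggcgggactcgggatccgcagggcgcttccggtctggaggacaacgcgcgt

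The PSMD8 window lies at chr7:29180674-29180923 and overlaps an annotated PSMD8 exon, and the PSMD2 window lies at chr16:20651402-20651651 outside annotated genes. The antioxidant response element core TGACNNNGC, bound by NFE2L1 and NFE2L2, was found in 3 of 18 promoters of 19S genes and 2 of 12 of 20S genes. These were 16.7% each, against 10.2% of all promoters, and belonged to PSMC6, PSMD9, PSMD12, PSMB5 and PSMB6. The interferon-stimulated response element was matched in 11.1% of the 19S (PSMD4 and PSMD9) and 8.33% of the 20S promoters (PSMB3), against 2.98% of all. GAS-like matches were found in 0 of either class. CCAAT was found in 27.8% of the 19S and 50% of the 20S promoters, against 33.8% of all. Promoters were found for 40 of the 48 proteasome genes.

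PSMD11 (RPN6), a lid subunit that clamps the 19S to the 20S, was 139, 128, 83.1, 94.4 and 134 RPKM in EAE mice on day 14. Ctrl mice had 49.1, 48.2, 53.2, 53.4 and 47.8 RPKM and OVA mice 46.5, 47.8, 49.0, 48.7 and 50.6 RPKM. The control mice were tightly grouped and the EAE mice all above them, by 1.17 ± 0.13 and 1.22 ± 0.13 on the log2 scale (adjusted p = 6.18e-06 and 6.1e-06 in limma). PSMD14 (RPN11), the deubiquitinase of the lid, was 104, 76.4, 62.0, 65.5 and 88.5 RPKM in EAE, 30.5, 42.4, 37.9, 43.7 and 36.1 RPKM in Ctrl and 50.2, 36.7, 37.8, 38.9 and 46.3 RPKM in OVA mice, without overlap. Its log2 fold changes were 1.04 ± 0.15 and 0.90 ± 0.15.

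PSMD4 (RPN10), a ubiquitin receptor, was 340.4, 297, 246, 238 and 340.3 RPKM in EAE mice. It was 189, 140, 142, 146 and 131 RPKM in Ctrl and 166, 104, 117, 126 and 156 RPKM in OVA mice, so all EAE mice were above both groups (log2 fold changes 0.96 ± 0.15 and 1.13 ± 0.15). Of the 6 ATPases, 4 rose relative to Ctrl and 5 relative to OVA. PSMC6 was 117, 93.3, 77.0, 76.7 and 103 RPKM in EAE, 25.0, 48.6, 49.3, 48.6 and 46.5 RPKM in Ctrl and 60.7, 55.6, 57.8, 49.9 and 51.1 RPKM in OVA mice. Its difference was 1.12 ± 0.18 relative to Ctrl, where replicate 1 was far below the other Ctrl mice (0.93 without it), and 0.75 ± 0.18 relative to OVA.

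PSMC4 was 149, 140.2, 112, 117 and 167 RPKM in EAE mice, 77.5, 71.9, 73.7, 83.2 and 63.6 RPKM in Ctrl mice and 72.8, 61.3, 63.9, 68.6 and 77.7 RPKM in OVA mice. Its groups did not overlap (log2 fold changes 0.88 ± 0.12 and 0.98 ± 0.12). Called 19S genes also included PSMC2, PSMC3, PSMD6 and PSMD12 relative to both control groups, and PSMC1, PSMD1, PSMD3 and PSMD13 relative to OVA, and whether the comparisons differ was not tested. PSMD9, by function an assembly chaperone of the base, had a negative value (-0.43 ± 0.15 relative to Ctrl, 8.84 ± 1.37 against 12.0 ± 2.10 RPKM), under the fold threshold. The other chaperones of the 19S, PSMD5 and PSMD10, had positive values and were not called in either comparison.

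**Figure D3:**
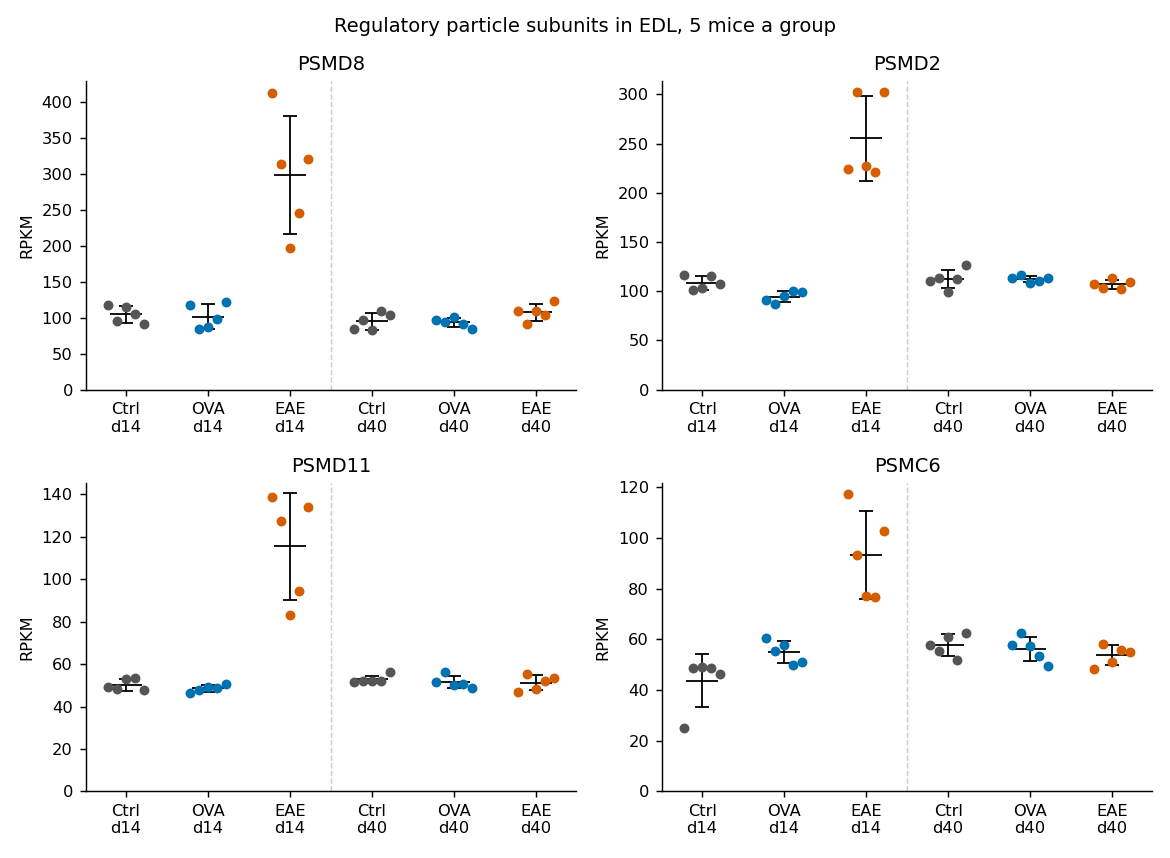
RPKM of the 19S genes PSMD8, PSMD2, PSMD11 and PSMC6 in each mouse (points) of the 6 groups, with the mean and SD as bars and a dashed line between day 14 (d14) and day 40 (d40). The 5 EAE mice on day 14 lie above the 10 control mice of that day for each gene, while the 3 groups on day 40 overlap.

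The constitutive 20S subunits had medians close to those of the 19S, with a log2 fold change of 0.61 relative to Ctrl and 0.69 relative to OVA, and all 14 tested had positive values in both comparisons. Of the alpha ring, which gates the core, PSMA2, PSMA3, PSMA4 and PSMA7 rose relative to Ctrl. PSMA3 showed the largest change, from 13.1, 18.5, 18.3, 21.0 and 18.0 RPKM in Ctrl and 24.5, 14.6, 18.5, 17.7 and 18.6 RPKM in OVA mice to 43.6, 34.6, 31.8, 30.1 and 41.6 RPKM in EAE mice, with no overlap. Its log2 fold change was 1.03 ± 0.15 relative to Ctrl (adjusted p = 8.02e-05 in limma) and 0.95 ± 0.15 relative to OVA (adjusted p = 0.000178). PSMA7 rose from 145 ± 17.1 to 281 ± 62.7 RPKM, by 0.94 ± 0.17.

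The 3 catalytic subunits that the inducible ones replace differed in their calls, and whether their changes differ was not tested. PSMB7 was 622, 405, 346, 406 and 474 RPKM in EAE mice on day 14, 339, 289, 267, 263 and 228 RPKM in Ctrl and 422, 216, 234, 245 and 325 RPKM in OVA mice. The EAE mice were above all Ctrl mice and overlapped the OVA mice (log2 fold changes 0.68 ± 0.19 and 0.66 ± 0.19, adjusted p = 0.00799 and 0.0122 in limma), and the call was lost without EAE replicate 1 in both comparisons (0.56 and 0.54) and without OVA replicate 2 relative to OVA (0.57). PSMB5, the chymotrypsin-like subunit, was 75.6, 55.3, 46.4, 51.7 and 64.7 RPKM in EAE, 63.4, 40.4, 38.6, 47.9 and 28.3 RPKM in Ctrl and 53.5, 22.7, 29.6, 31.6 and 44.6 RPKM in OVA mice, with overlap. It was called relative to OVA (0.73 ± 0.23, adjusted p = 0.0204 in limma) and not relative to Ctrl (0.45 ± 0.23, adjusted p = 0.115). Single mice decided both: the first call was lost without OVA replicate 2 (0.58) or EAE replicate 1 (0.64), and PSMB5 was called relative to Ctrl without Ctrl replicate 1 (0.60).

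PSMB6, the caspase-like subunit, was 255, 163, 151, 165 and 194 RPKM in EAE, 202, 155, 148, 146 and 120.3 RPKM in Ctrl and 210.1, 106, 124, 123 and 173 RPKM in OVA mice. The groups overlapped, and its differences of 0.26 ± 0.19 and 0.36 ± 0.19 did not pass the test (adjusted p = 0.272 and 0.156 in limma). The beta subunits PSMB1 and PSMB3 rose relative to both groups and PSMB4 relative to OVA, where fits that left out 1 mouse lost the calls of PSMB1 in 2 of 10 and of PSMB4 in 4 of 10. PSMB2 was not called in either comparison (0.28 ± 0.14 and 0.38 ± 0.14).

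The transcripts of inducible and constitutive subunits were compared within each mouse as a ratio of RPKM. Proteasome protein was not measured, and in whole muscle both transcripts need not come from the same cells. On day 14 the ratio of PSMB8 to PSMB5 was 0.124, 0.0994, 0.251, 0.149 and 0.107 in EAE mice, 0.430, 0.309, 0.415, 1.40 and 0.932 in Ctrl and 0.336, 0.838, 0.645, 0.460 and 0.420 in OVA mice. The EAE mice were below all control mice. On the log2 scale the ratio was lower by a difference of -2.10 relative to Ctrl (4.29-fold) and -1.89 relative to OVA (3.71-fold). The ratio of PSMB9 to PSMB6 differed by -2.18 and -1.62, and that of PSMB10 to PSMB7 by -2.19 and -1.73, each without overlap. These 6 of 18 tests gave an exact two-sided permutation p of 0.00794, the smallest that 5 against 5 mice allow, and an adjusted p of 0.0238 over the 18.

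**Figure D4:**
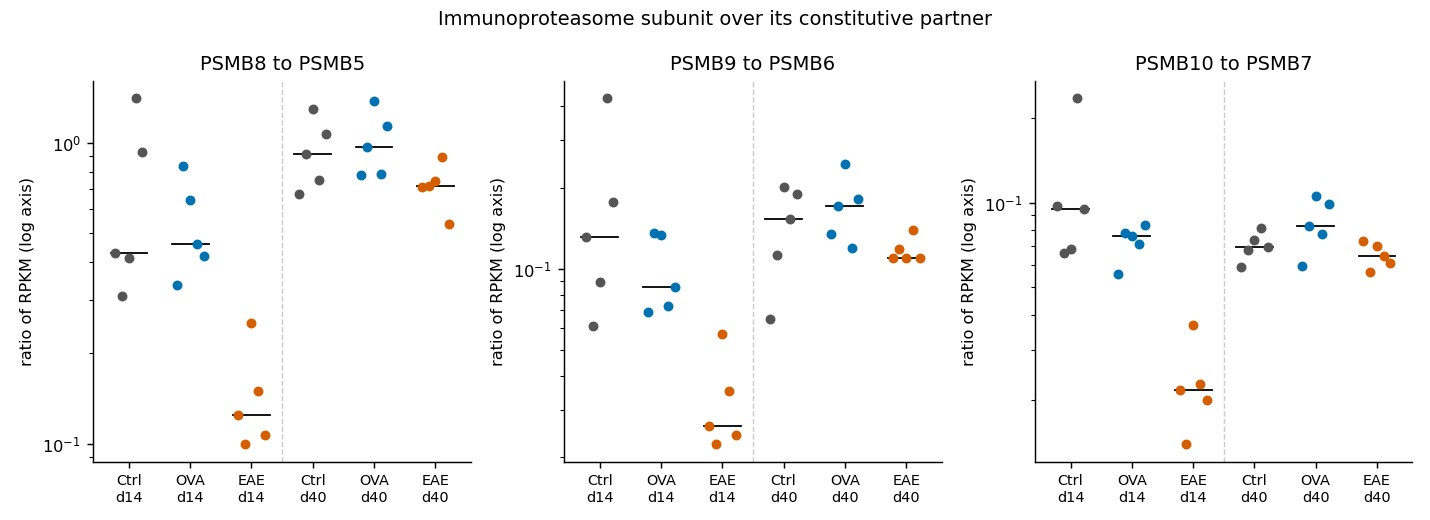
Ratio of RPKM of each inducible subunit to the constitutive subunit it replaces, on a log axis, in each mouse (points) of the 6 groups, with the group median as a line and a dashed line between day 14 (d14) and day 40 (d40). All 5 EAE mice on day 14 lie below the 10 control mice of that day in each panel, and the groups on day 40 overlap.

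The assembly chaperones PSMG1 to PSMG4 and the regulator PSMF1 were not called in either comparison on day 14. Their log2 fold changes relative to Ctrl ran from -0.39 ± 0.10 for PSMF1 to 0.48 ± 0.22 for PSMG4. PSMF1 (PI31) was 4.84, 4.85, 4.93, 4.13 and 4.99 RPKM in EAE and 5.89 to 6.68 RPKM in Ctrl mice, so the groups did not overlap although the change stayed under the fold threshold.

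Genes that serve the proteasome were read from a separate list of 20 regulators and shuttles, of which 19 were tested. In EAE-induced mice on day 14, 8 rose and 0 fell relative to each control group, where 14.6% (Ctrl) and 11.0% (OVA) of all genes rose and 11.8% and 9.28% fell. NFE2L2 (NRF2), an inducer of antioxidant and proteasome genes, was 46.6, 57.8, 32.9, 29.4 and 37.9 RPKM in EAE mice against 10.8 to 23.9 RPKM in Ctrl and 20.7 to 24.7 RPKM in OVA mice (log2 fold changes 1.12 ± 0.20 and 0.81 ± 0.20). NFE2L1 (NRF1), which drives subunit genes when the proteasome is inhibited, was 207 ± 18.3 RPKM against 168 ± 12.5 in Ctrl mice, a difference of 0.30 ± 0.11 under the fold threshold. The proteasome-bound deubiquitinase USP14 (0.93 and 0.85), the ubiquitin shuttle RAD23B (0.83 and 0.73), the proteasome thioredoxin TXNL1 (0.75 and 0.72) and the scaffold ECPAS (0.65 and 0.71) rose relative to both groups. NGLY1 (0.65) and UBQLN2 (0.61) passed relative to Ctrl, and ADRM1 (0.96) and VCP (0.78) relative to OVA, and whether the comparisons differ was not tested. POMP, the maturation factor of new cores, was 178 ± 37.4 RPKM against 146 ± 34.6 in Ctrl mice and was not called. Of the ubiquitin genes and the activating enzyme UBA1, 0 of 4 tested were called.

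Other genes of antigen processing were examined beside the immunoproteasome. Of 11 tested genes of MHC class I peptide loading, 7 fell and 1 rose relative to Ctrl on day 14, with TAP1 at -1.996 ± 0.44, H2-K1 at -1.43 ± 0.34 and B2M at -1.35 ± 0.28, and with the chaperone CANX at 0.74 ± 0.15. The shares of all genes were 11.8% lower and 14.6% higher. Ctrl day 14 replicate 4 had a summed level of the 12 listed peptide loading genes of 1855 RPKM, against 565 to 1014 RPKM in the other Ctrl mice. The EAE mice had 445 to 577 RPKM. TAP1 and IRF1 were far higher in that Ctrl mouse, as given above. How far the peptide loading and interferon values relative to Ctrl rest on it is not reported here. Relative to OVA, 1 of the 11 fell and 1 rose, close to the 9.28% and 11.0% of all genes: B2M fell (-0.87 ± 0.28) and CANX rose (0.60 ± 0.15), calls lost in 1 and 3 of 10 fits that left out a mouse, while TAP1 (-1.03 ± 0.44) was not called. Of 14 tested genes of interferon signalling, 7 fell and 1 rose relative to Ctrl (11.8% and 14.6% of all genes), with IRF7 at -2.67 ± 0.40 and IRF1 at -1.44 ± 0.29 and with the kinase JAK1 at 0.70 ± 0.18. Relative to OVA, 3 of 11 fell (9.28% of all genes), IRF1 (-0.96 ± 0.29), IRF9 (-0.78 ± 0.21) and the interferon gamma receptor chain IFNGR2 (-0.64 ± 0.13). Interferon genes tested relative to Ctrl but not OVA passed the filter of 3 RPKM through the Ctrl mean alone. Their EAE mean was below the Ctrl mean by the filter itself, so they add no support to the 7 of 14.

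Most tested markers of leukocytes also fell in EAE-induced mice on day 14. Of 15 markers, 5 of 7 tested fell relative to Ctrl (11.8% of all genes) and 7 of 8 tested relative to OVA (9.28%) on day 14. Any marker tested relative to OVA but not Ctrl passed the filter of 3 RPKM through the OVA mean alone. Its EAE mean was below the OVA mean by the filter itself, so it adds no support to the 7 of 8. The summed level of the 15 markers was 108 to 260.0 RPKM in EAE, 223 to 359 in Ctrl and 225 to 331 in OVA mice, and most of it was LYZ2. Without LYZ2 it was 48.5, 40.4, 76.3, 49.6 and 47.6 RPKM in EAE mice, 66.6 to 106 RPKM in Ctrl and 63.5 to 96.7 RPKM in OVA mice. The EAE mouse with the highest marker sum, replicate 3, also had the highest PSMB8 and PSMB9, while PSMB10 was highest in replicate 1 (13.3 RPKM against 12.7 in replicate 3). The EAE mouse with the lowest sum, replicate 2, had the lowest level of all 3. The control groups gave no single pattern. In OVA mice the lowest sum (63.5 RPKM without LYZ2) was in replicate 3, which had the highest PSMB9 (16.4 RPKM). The highest OVA sum was in replicate 5, which had the highest PSMB10 (27.0 RPKM). Ctrl replicate 4, highest for all 3 subunits, had the highest sum with LYZ2 but not without it (95.9 RPKM against 106 in replicate 1). The defining lymphocyte markers CD3E, CD4, CD8A and CD79A each stayed below 1 RPKM in all 30 mice, and CD8A was at 0 in 1 mouse. The macrophage marker CD68 was not called (-0.21 ± 0.16 relative to Ctrl). The part of leukocytes in the lower level of the inducible subunits was not tested.

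OVA mice on day 14 did not differ from Ctrl mice in any proteasome gene that passed the test. Of 46 genes, 0 were called in limma and 2 had an unadjusted p under 0.05, PSMC6 (0.37 ± 0.18) and PSME2 (-0.77 ± 0.28), and the smallest adjusted p was 0.381. Among all 8471 genes tested, 821 had an unadjusted p under 0.05 in limma, and 0.0944% were called higher and 0.0472% lower. All OVA mice were above all Ctrl mice for 1 gene (PSMC6, against 1.09% of all genes) and below them for 1 (PSMD2, against 1.61%). The inducible subunits had values of -0.49 for PSMB8, -0.66 for PSMB9 and -0.44 for PSMB10, with standard errors of 0.30 to 0.38, and -0.13, -0.27 and -0.15 without Ctrl day 14 replicate 4.

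On day 40, 0 of 46 proteasome genes were called in limma in each of the 3 comparisons. Relative to Ctrl, 9 had an unadjusted p under 0.05 in EAE mice, where 2423 of all 8691 genes tested did. The smallest adjusted p was 0.0688 in limma for PSMB5 (0.33 ± 0.10), and 0.0690% of all genes were called higher and 0.391% lower. Relative to OVA, 4 had an unadjusted p under 0.05, where 1500 of all 8598 genes tested did (0.0349% called higher and 0.174% lower). Between OVA and Ctrl 0 of the 46 did, where 272 of all 8706 genes did (0% called in either direction). For 0 of the 46 did EAE mice lie wholly above or below Ctrl mice (0.713% and 4.51% of all genes) or OVA mice (0.977% and 4.90%), nor OVA mice above or below Ctrl mice (0.287% and 0.391%). The median log2 fold change of EAE against Ctrl was 0.16 for the 20S core, 0.07 for the 19S and 0.02 for the immunoproteasome subunits, and the last 2 changed sign under at least 1 alternative. PSMB8 was 21.0, 16.7, 22.5, 22.6 and 13.8 RPKM in EAE, 13.2, 19.7, 22.6, 20.1 and 23.1 RPKM in Ctrl and 19.0, 21.9, 32.8, 17.2 and 25.1 RPKM in OVA mice. PSMD8 was 109.5, 91.1, 109.7, 104 and 123 RPKM in EAE, 83.9, 96.3, 83.2, 109.8 and 104 RPKM in Ctrl and 97.2, 94.5, 100.4, 90.9 and 84.1 RPKM in OVA mice. In both genes the 3 groups overlapped. The ratio of PSMB9 to PSMB6 was lower in EAE than in OVA mice by -0.50 on the log2 scale, with an exact two-sided permutation p of 0.0317 that did not pass the correction (adjusted p = 0.0816), and of the 18 ratio tests no test on day 40 passed.

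The EAE effect on some proteasome genes differed between the days when the difference itself was tested in all 30 mice, as it did for many other genes. For EAE against Ctrl, 13 genes were higher and 4 lower on day 14 than on day 40 relative to their controls, where 20.9% and 11.7% of all genes were. The 4 were PSMB8, PSMB9, PSMB10 and PSME1, with differences of log2 fold changes of -1.62 ± 0.40, -1.94 ± 0.49, -1.59 ± 0.36 and -1.67 ± 0.25. PSMD8 (1.30 ± 0.20), PSMD2 (1.29 ± 0.12), PSMC6 (1.22 ± 0.19) and PSMD11 (1.22 ± 0.14) led the others, and 9 of the 13 were 19S genes.

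For EAE against OVA, 18 genes were higher and 1, PSME1 (-1.26 ± 0.25), was lower, against 13.7% and 8.16% of all genes. Median-of-ratios scaling gave 11 higher and 3 lower, and 801 higher and 954 lower among all 8896 genes tested. Leaving out EAE day 14 replicate 1, EAE day 14 replicate 3 or OVA day 40 replicate 3 gave 2, 3 and 2 lower. The inducible subunits differed by -0.91 for PSMB8, -0.92 for PSMB9 and -0.85 for PSMB10 but did not pass (adjusted p = 0.0784, 0.144 and 0.0625 in limma). The all-gene median of these differences was 0.15 (EAE against Ctrl) and 0.16 (EAE against OVA), and both were 0.04 under median-of-ratios scaling. The days were sampled in different mice, and sampling day and any processing batch cannot be told apart. PSMB5 itself was 28.3 to 63.4 RPKM in Ctrl mice on day 14 and 17.5 to 26.8 RPKM on day 40, without overlap. The Ctrl ranges of the days overlapped for PSMB6 (120.3 to 201.5 and 87.0 to 128.1 RPKM) and PSMB7 (228 to 339 and 200.5 to 264 RPKM). A difference between the Ctrl mice of the days was not tested, and no all-gene share is given for it.

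**Figure D5:**
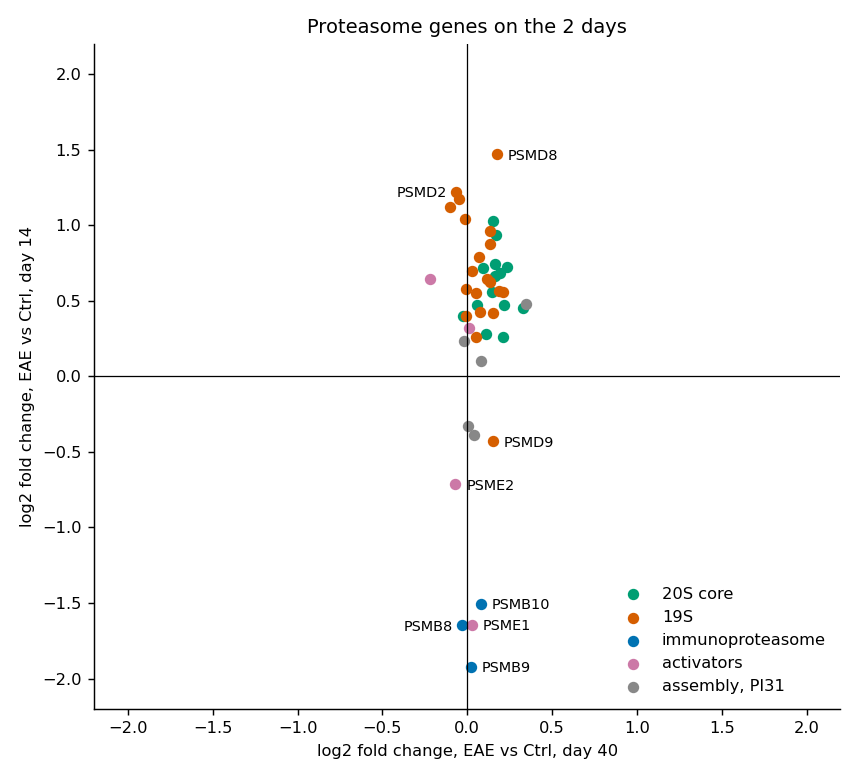
Log2 fold change of EAE against Ctrl on day 40 (horizontal axis) and on day 14 (vertical axis) for the 46 tested proteasome genes, coloured by class, on axes of equal scale. The genes spread between -1.92 and 1.47 on day 14 and between -0.22 and 0.35 on day 40.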

How the data were processed

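RNA-Seq of EDL was analysed in 30 mice, 5 in each of 6 groups named by the labels. Per the study's methods, libraries were made from polyA RNA with a directional kit and sequenced as paired reads, which the authors aligned with Subread to mm10 and counted with featureCounts on RefSeq transcripts. The deposited values were log2(RPKM + 1), with 0.0001 written where no read was counted. The scale was read from the values, since 58.87% of low values came out as whole reads on it (within 0.1 read) against 17.81% if they were taken as RPKM, and the planned tests had assumed RPKM itself. The table keeps no counts, so no count model was used.

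Values were returned to RPKM and tested on log2(RPKM + 0.1) with limma 3.58.1 (lmFit, eBayes with trend) in R 4.3.3. The 15 mice of a day shared 1 model, and genes with a group mean above 3 RPKM in at least 1 compared group were kept. The day comparison used all 30 mice. Ratios within a mouse were compared by an exact two-sided permutation test over all 252 splits of 5 against 5 mice. Estimated reads per mouse set the precision of low values, and mice of a group differed by more than counting noise (chi-square per degree of freedom 7.12 to 90.3 over 60 pairs). No pair of columns was identical.

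Named genes were the 3 inducible subunits, their 3 constitutive counterparts, PSME1, PSME2 and up to 5 called genes in each direction with the largest changes per comparison, and further genes were given by class. The members and lists were chosen with earlier results of these data known. Alternatives changed the pseudocount, filter, scaling, fold threshold, mice in the model, replicate block and each mouse, and a correction for transcript length was chosen after seeing the data. Gene positions came from GENCODE vM21 and promoters from RefSeq (GRCm38.p6). Statistics were tested on simulated data, and ratios and figures were made with Python 3.11.15, numpy 2.4.6, pandas 2.3.3, scipy 1.17.1 and matplotlib 3.10.9. Some genes of the lists are counted but not reported by name here.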

Additional observations from a re-analysis of the deposited data

Results flagged for a closer look

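In 7 of the 96 sets of 5 mice examined among named genes, 1 mouse stood apart from the other 4 on the log2 scale, where chance alone gives about 1 in 20. Ctrl day 14 replicate 4, far above the others in RPKM of PSMB8, PSMB9 and PSMB10, is not among the 7 on that scale. The lowest OVA mouse on day 14 had 14.5 RPKM of PSMB8 and 8.81 RPKM of PSMB9, and it was the same mouse, replicate 4. The lowest Ctrl mouse on day 40 had 13.2 RPKM of PSMB8. The lowest EAE mouse on day 40 had 1.91 RPKM of PSME2, and the highest Ctrl mouse on day 40 had 56.1 RPKM of PSMD11. Ctrl replicate 1 on day 14 had the lowest PSMC6 (25.0 RPKM) and the highest PSMD4 (189 RPKM) of its group.

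The effect of EAE on some proteasome genes differed between day 14 and day 40 when the difference was tested in limma, as it did for many other genes. Relative to Ctrl, 13 proteasome genes had a higher and 4 a lower log2 fold change on day 14, of 46 tested, where 20.9% and 11.7% of all genes were so called. The lower ones were PSMB8 (-1.62), PSMB9 (-1.94), PSMB10 (-1.59) and PSME1 (-1.67). Among the higher ones were PSMD8 (1.30), PSMD2 (1.28), PSMC6 (1.22), PSMD11 (1.22), PSMD14 (1.05), PSMA3 (0.87), PSMD4 (0.83) and PSMC4 (0.74).

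Relative to OVA, 18 were higher and 1 lower on day 14 (13.7% and 8.16% of all genes), and the lower one was PSME1 (-1.26). PSMD2 (1.49), PSMD8 (1.33), PSMD11 (1.23), PSMD4 (0.99), PSMA3 (0.97), PSMC4 (0.87), PSMD14 (0.86) and PSMC6 (0.81) were among the higher ones. Both tests share the EAE mice, and whether these counts depart from the all-gene shares was not tested.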

How the results depend on the processing

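No called result changed direction under the alternatives run. Among results that were not called, 35 changed sign in at least 1 alternative, such as the log2 ratio of PSMB8 to PSMB5 in OVA against Ctrl, which ran from -0.44 to 0.10 on day 14 and from -0.01 to 0.23 on day 40 without 1 mouse. Of the 24 class medians, 404 of 408 alternative values stayed within the spread between replicates, and of the 96 changes of named genes, 1999 of 2016 kept their side of the threshold. The higher calls of EAE against Ctrl on day 14 (19) numbered 29 without a fold threshold and 29 with the transcript length correction, and 15 to 24 when 1 mouse was left out. With the length correction 1231 of all 8771 genes tested were called higher, and all-gene shares without a fold threshold are not given here. Those against OVA (26) ranged from 16, without EAE day 14 replicate 1, to 30. The higher calls in the day comparison relative to Ctrl (13) numbered 21 without a fold threshold, 30 with the length correction (1618 of all 9013 genes tested) and 12 to 17 without 1 mouse. Relative to OVA (18 higher, 1 lower) the higher calls numbered 11 with median-of-ratios scaling, 31 with the length correction (1267 of all 8935 genes tested) and 13 to 23 without 1 mouse. The lower ones numbered 2 without a fold threshold, 3 with median-of-ratios scaling, 2 with quantile normalization and 1 to 3 without 1 mouse. On day 40, leaving out 1 mouse moved the log2 ratio of PSMB9 to PSMB6 in EAE against OVA between -0.61 and -0.35, that of PSMB10 to PSMB7 between -0.48 and -0.27, and that of PSMB10 to PSMB7 in OVA against Ctrl between 0.16 and 0.37. The adjusted test was passed by the first without OVA day 40 replicate 1 (-0.57) or replicate 4, and by the others without OVA day 40 replicate 1. The causes were not tested.

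With the replicate number as a block, 19 genes were higher and 5 lower for EAE against Ctrl on day 14, 26 and 4 against OVA, 13 and 4 in the day comparison relative to Ctrl, and 18 and 2 relative to OVA, where the call was 1 lower without it. The labels do not tie mice by number, and not every pair of same-numbered mice deviated together: of 30 pairs of same-numbered mice, 8 had a correlation of deviations over 0.1 (-0.73 to 0.70), and 3 mice correlated best with their own number. The 3 pairs of replicate 1 mice on day 14 did deviate together (0.51 to 0.70). Low levels such as PSME2 and the lymphocyte markers are the least precise at this depth, and the table keeps no counts from which an interval could be set.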
